A study of Rattus norvegicus with 30 samples.

Results

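Gene expression in the proximal sciatic nerve (SN) of adult male Sprague-Dawley rats was compared between 4 d and 7 d after a segment of the left nerve had been resected. The comparison used the 3 arrays titled 7 d and the 3 arrays titled 4 d, 6 of the 30 arrays in the series, and left out the arrays of 0 d. The other arrays hold SN at 0, 1 and 14 d and the L4-6 dorsal root ganglia (DRG) of the same operation at all days, and the 6 DRG arrays of 4 d and 7 d were set beside the nerve. The rats of both days carried the same lesion and differed in the day on which the tissue was taken. The rats were allocated to the days in groups of 6, and neither the labels nor the methods state which animals make up an array, so that an array may be a pool, and the p-values measure only the spread between arrays. Amplified RNA carried the dye Cy3 and was read on 1-colour Agilent arrays that cover the rat genome. Levels are given as normalized signal, the log2 intensity of a probe minus the 75th percentile of its array, and changes as log2 differences of 7 d minus 4 d with their SE. A gene is said to have risen or fallen where limma gave a Benjamini-Hochberg adjusted p under 0.05 over all probes tested, and n is 3 arrays a day unless said otherwise.

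After a peripheral nerve is cut, the axons beyond the lesion degenerate, macrophages enter and clear myelin and axon debris, and Schwann cells leave the myelinating state and become repair cells. In the proximal stump the same cells support axons that sprout from surviving neurons. Schwann cells there divide, express receptors and adhesion molecules that repair cells are known for, and later return to myelin formation. Lymphocytes are known to arrive after the early wave of neutrophils and monocytes.

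Replicate 3 of 4 d stood apart from the other 4 d arrays. Across the probes of the SN arrays, which are not independent replicates, replicates 1 and 2 of 4 d correlated with each other at 0.9954. Replicate 3 correlated with replicates 1 and 2 at 0.9903 and 0.9916, at or just above its values with the arrays of 7 d (0.9891 to 0.9903). The 3 arrays of 7 d correlated with each other at 0.9957 to 0.9967. Replicates 1 and 2 of 4 d lay together on 1 slide, replicate 3 lay on another slide with DRG arrays, and all 3 arrays of 7 d lay on another slide with 1 DRG array, so that slide and day cannot be told apart for 7 d. All 6 SN arrays shared 1 scan date. Between 33888 and 34723 probes per array were well above background, and no spot was saturated. The defining Schwann cell marker Sox10 was well above background on all 6 arrays, at 5.02 to 5.53. The 16 skeletal muscle markers varied between arrays beyond any difference between the days: their mean was 0.45, -1.40 and -0.84 on the 4 d arrays and -1.42, 2.09 and 1.57 on the 7 d arrays. In these bulk samples, fewer cells of a type and less RNA per cell cannot be told apart.

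Of 33975 probes tested, 8141 (24.0%) changed between 4 d and 7 d, 4674 (13.8%) of them higher and 3467 (10.2%) lower at 7 d. On all of these the 3 arrays of 7 d lay beyond the 3 arrays of 4 d, as they did on 15674 (46.1%) of the probes tested. The changes were mostly small, with a median size of 0.53 on the log2 scale among the probes that changed. Only 1090 probes changed by more than 2-fold, 803 (2.36%) higher and 287 (0.845%) lower. Of all changed probes, 584 were not well above background on every array of 1 of the days, so that their fold is only a bound, and no gene named by rule is among them. The share of the changed probes that rose, 57.4%, depended on the scaling, and was 39.3% when arrays were scaled to their median and 43.9% with normexp background correction and a percentile shift. Among changes over 2-fold the share that rose was 73.7%, and 57.5%, 59.4% and 39.1% with quantile normalization, median scaling and normexp with a percentile shift. Without replicate 3 of 4 d, 11368 probes changed and 48.8% of them rose, without any other array 3067 to 5106 changed, and with slide as a random block 2521. Among the 287 probes that fell by more than 2-fold, replicate 3 was the lowest of the 4 d arrays on 221, and among the 803 that rose it was the highest on 527, so that it lay on the side of 7 d. Of the 112 genes named by rule that changed, 31 kept their call in all 19 alternative analyses.

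**Figure D1:**
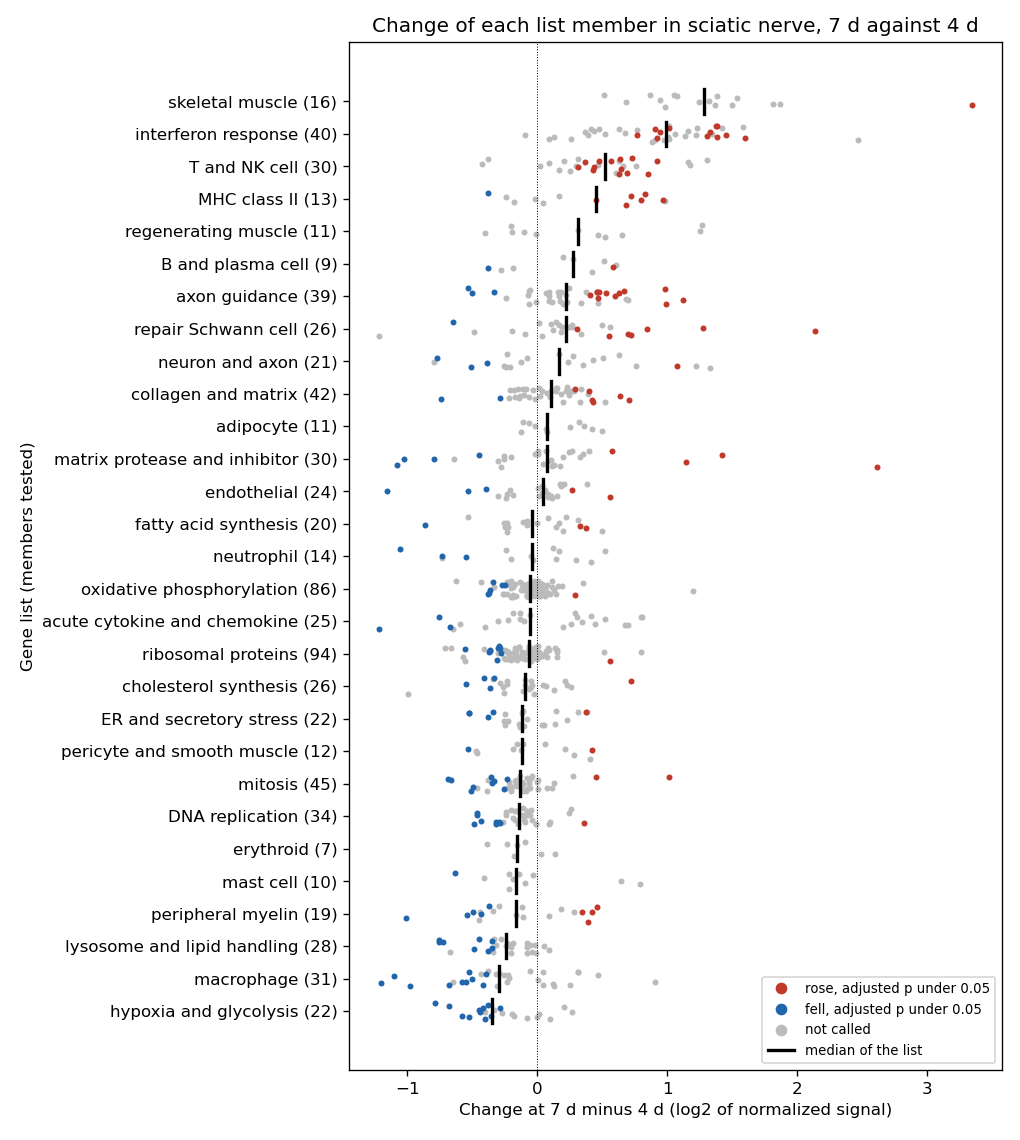
Change from 4 d to 7 d (log2, x axis) of each tested member of 29 gene lists (y axis, number tested in brackets), with red points for genes that rose, blue for genes that fell, grey for those not called and a black bar at the median. Interferon response genes lie to the right with a median of 0.99, and macrophage, lysosome and glycolysis genes lie to the left with medians of -0.30, -0.24 and -0.35.

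Among the rises given here that kept their call in all alternatives, those of Gfra3, Mmp13, Pappa and Ednrb were the largest. Which cells of the bulk nerve carried them was not tested. Gfra3, the artemin receptor of the GDNF receptor family, had a signal of -3.57, -3.46 and -3.47 at 4 d and of -0.57, -0.57 and -0.56 at 7 d. That is a rise of 2.94 ± 0.065 or 7.65-fold (adjusted p = 0.000154), with 2.91 on its other probe. It was lower at 0 d, between -4.62 and -4.06, and at 14 d it was between -0.25 and 0.29. Ednrb, an endothelin receptor of glial and melanocyte lineages, went from 0.39, 0.30 and 0.48 to 2.50, 2.56 and 2.50, a rise of 2.13 ± 0.074 (adjusted p = 0.000479). Its 0 d and 1 d arrays, at 0.05 to 0.53, covered the range of its 4 d arrays, so that the step lay between 4 d and 7 d. No array of 7 d overlapped the 4 d arrays for either gene.

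Mmp13, the collagenase 3 of tissue remodelling, had a signal of -2.78, -2.90 and -2.81 at 4 d and of -0.81, 0.01 and 0.15 at 7 d, a rise of 2.61 ± 0.25 or 6.10-fold (adjusted p = 0.00314). It was back between -3.12 and -2.61 at 14 d, so that its high level was seen at 7 d among the days measured. Pappa, a protease that cleaves insulin-like growth factor binding proteins, rose by 2.45 ± 0.17 (adjusted p = 0.00197), from between -2.26 and -2.14 to between -0.13 and 0.55. Moxd1, a monooxygenase-like protein with neural crest expression, rose by 2.41 ± 0.15 and Olig3, a transcription factor of the neural tube, by 2.07 ± 0.32, each with its call kept in 18 of 19 alternatives. Ubd and Pip, also among the 10 largest rises, varied more between arrays. Ubd, the ubiquitin-like modifier Fat10 that inflammatory cytokines induce, had 4 d signals of -0.18, 0.36 and 1.59 and 7 d signals of 2.40, 4.02 and 2.56, and its rise of 2.40 ± 0.59 (adjusted p = 0.0335) was called in 10 of 19 alternatives. Pip, a secreted glycoprotein of exocrine glands, rose by 2.37 ± 0.60 (adjusted p = 0.0358) and was also called in 10 of 19.

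Myh2, a fast myosin heavy chain of skeletal muscle, had the largest rise of the named genes, 3.35 ± 0.49 or 10.2-fold (adjusted p = 0.00821), from -5.83, -5.49 and -6.40 to -3.60, -1.81 and -2.27. The list of 16 skeletal muscle markers to which it belongs had 1 member that rose, Myh2 itself, and none that fell, with a median of 1.28, and 6 rose without replicate 1 of 7 d. The list mean was high on replicates 2 and 3 of 7 d and low on replicate 1, where Myh2 was also lowest. At 0 d Myh2 ranged from -6.27 to 3.89 between replicates. The part of muscle tissue in its rise was not tested. None of the 11 markers of regenerating muscle, 11 adipocyte or 7 erythroid genes tested was called.

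Among the 26 repair Schwann cell genes, 7 rose and 1 fell, with a median of 0.22 against 0.01 over all probes, of which 13.8% rose. At least 5 rose in every alternative, and Ednrb, Pou3f1 and Sox4, the rises named by rule, kept their calls in all. Pou3f1, the POU factor that drives Schwann cells from the promyelinating to the myelinating stage, went from 0.32, 0.29 and 0.20 to 1.58, 1.52 and 1.53 (1.27 ± 0.067, adjusted p = 0.00183) and was at 1.81 to 2.12 at 14 d. Sox4, a transcription factor of immature Schwann cells, went from 2.46, 2.48 and 2.47 to 3.30, 3.32 and 3.31 (0.84 ± 0.059, adjusted p = 0.00197), and of 2 other Sox4 probes 1 rose and 1 gave 0.36 (adjusted p = 0.0762). Cell adhesion members rose by less: Cdh2, N-cadherin, by 0.72 and Ncam1 by 0.70. Gfap, an intermediate filament of immature and nonmyelinating Schwann cells, fell by 0.65 ± 0.087 (adjusted p = 0.00677). Ngfr, the p75 receptor that marks repair cells, had 4.07, 4.15 and 4.16 at 4 d and 4.17, 4.16 and 4.16 at 7 d. The lineage marker Sox10 differed by 0.26 ± 0.10 (adjusted p = 0.114), so that neither of these 2 bright genes passed the test. The list mean was -0.28 to -0.20 at 4 d and 0.01 to 0.04 at 7 d.

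Genes of axon guidance, whose ligands and receptors steer axons and also sort Schwann cells, included more rises than falls. Of 39 tested, 12 rose and 3 fell, shares of 30.8% and 7.69% against 13.8% and 10.2% of all probes, with a median of 0.22. When any array was left out 6 to 12 rose, with slide as a random block 4, and with normexp and a percentile shift 2. Sema7a, a membrane semaphorin that promotes axon growth through integrins, had -1.25, -1.25 and -1.29 at 4 d and -0.18, -0.29 and -0.38 at 7 d (0.98 ± 0.075, adjusted p = 0.00209) and kept its call in all alternatives. Epha3, an ephrin receptor, rose by 0.99 ± 0.15 (adjusted p = 0.00928). Sema4d, a plexin B ligand, rose by 1.12 ± 0.18 (adjusted p = 0.0108) from a dim signal of -6.73 to -6.13, and with normexp background correction and a percentile shift the difference was -0.05. Sema5a, Plxnc1 and Sema4f fell, with differences of -0.54 to -0.33, and of the other Sema5a probes 3 fell and 2, at 0.03 and 0.04, were not called. Of 21 neuron and axon genes, 1 (4.76%) rose and 3 (14.3%) fell, against 13.8% and 10.2% of all probes. Their median was 0.17, and 11 of the 21 were higher in the mean at 7 d. The galanin gene Gal, a neuropeptide of injured neurons, fell by 0.51 ± 0.066 (adjusted p = 0.00619) and the neuronal tubulin Tubb3 by 0.77 ± 0.12. Ret, the signalling partner of the GDNF family receptors, fell by 0.39 on the probe used, and 3 other Ret probes, from -0.25 to 0.23, were not called, and the Ret call was kept in 9 of 19 alternatives.

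**Figure D2:**
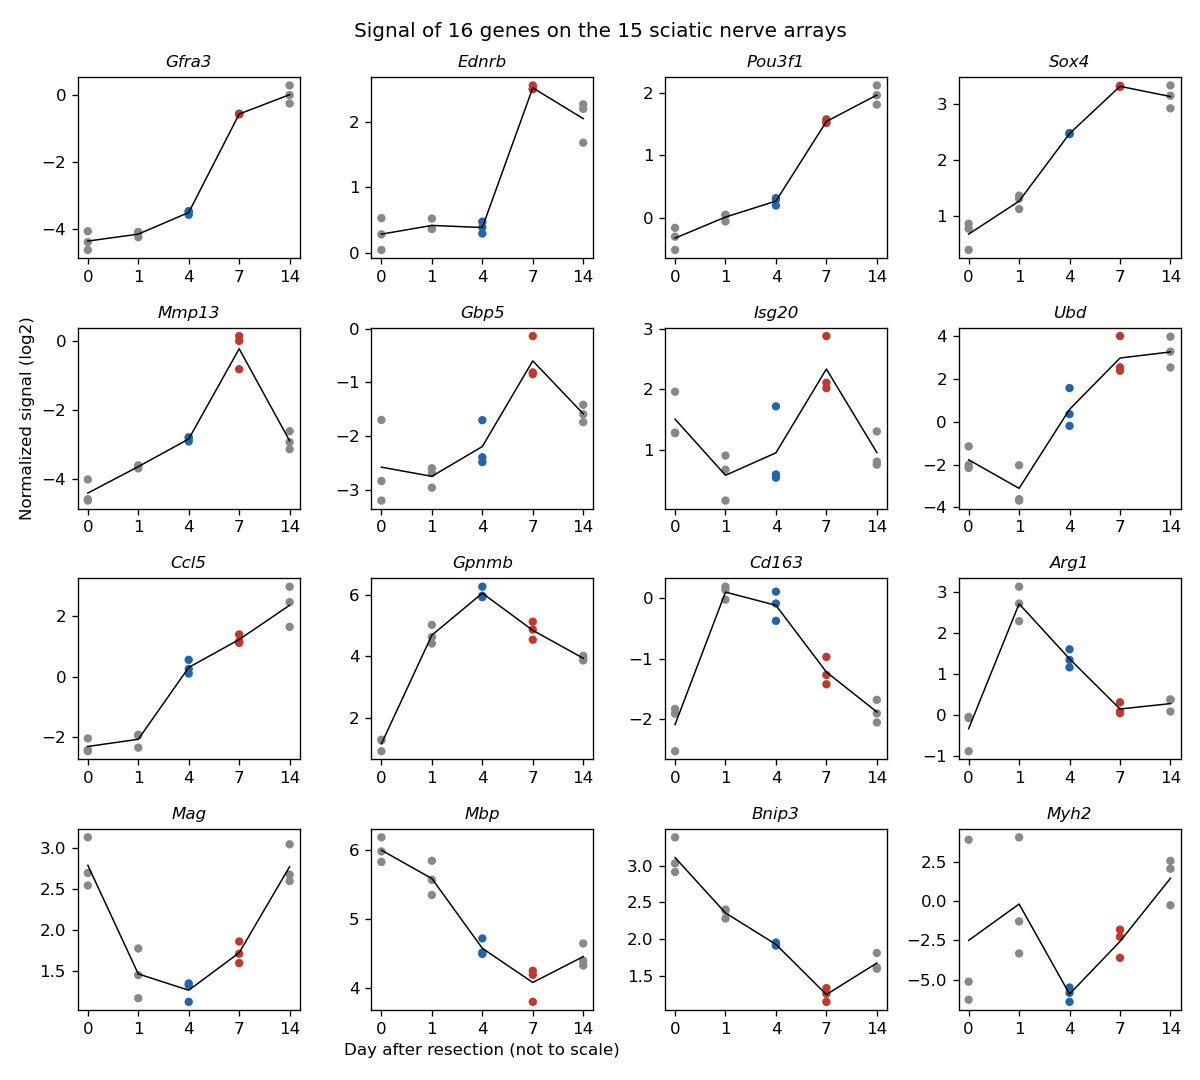
Normalized signal (log2, y axis) of 16 named genes on all 15 SN arrays by day after resection (x axis, not to scale), with blue points at 4 d, red at 7 d, grey at other days and a line through the day means. Gfra3, Ednrb and Pou3f1 step up between 4 d and 7 d and stay up at 14 d, whereas Mmp13 is back near its 4 d level at 14 d.

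Interferon response genes, which type I and type II interferons induce, were higher at 7 d. Of 40 tested, 12 (30%) rose, against 13.8% of all probes, and none fell. A higher mean at 7 d was seen in 39, and the median was 0.99 against 0.01 over all probes. Gbp5, a guanylate-binding GTPase, went from -2.48, -2.40 and -1.70 to -0.85, -0.14 and -0.81 (1.60 ± 0.28, 3.02-fold, adjusted p = 0.0130). Isg20, an antiviral exonuclease, went from 0.60, 0.55 and 1.72 to 2.11, 2.88 and 2.02 (1.38 ± 0.38, adjusted p = 0.0458). Ifit1, which binds foreign RNA, rose by 1.45 ± 0.36 (adjusted p = 0.0348). At 0 d Ifit1 was at -1.16 to 0.37, which overlaps its 7 d arrays (-0.30 to 0.64). Gbp5 at -3.20 to -1.70 and Isg20 at 1.28 to 1.96 lay below their 7 d arrays at 0 d. Irf7, the transcription factor that amplifies the response, went from 4.88, 4.87 and 6.02 to 6.50, 7.08 and 6.32, and Oas1a, an oligoadenylate synthetase, from 4.01, 3.89 and 5.14 to 5.50, 6.09 and 5.44. In each of these genes replicate 3 was the highest of the 4 d arrays and still below all arrays of 7 d. B2m, the light chain of MHC class I, and Gbp2, a second guanylate-binding GTPase, differed by 0.26 and -0.10 and were not called.

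The number of interferon genes called depended on single arrays. Among the genes above, the call of Gbp5 was kept in 17 of 19 alternatives and those of Isg20 and Ifit1 in 9 each, and single-gene alternatives were not run for Irf7 and Oas1a. The list mean was 1.08 and 1.02 on replicates 1 and 2 of 4 d, 1.97 on replicate 3, and 2.09, 2.75 and 2.07 on the arrays of 7 d. Without replicate 3 of 4 d, 31 of the 40 members rose with a median of 1.27. Without replicate 1 or 2 of 4 d, or replicate 1, 2 or 3 of 7 d, 1 to 3 members were called, and with slide as a random block, or with normexp and a percentile shift, none was. The median stayed above 0 in every alternative, between 0.74 and 1.27.

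Promoters of this list and of the mitosis, DNA replication and cholesterol synthesis lists were searched for letters chosen for each list, as a description. The list holds known interferon-induced genes, and a part of these letters in their rise was not tested. RefSeq promoter windows (GRCr8, 250 bases before to 50 after the start of the gene) were found for 33 of the 40 genes, and 23 of them (69.7%) held the letters of the interferon-stimulated response element, GAAA and a second GAAA with 2 bases of any kind between them, on either strand, against 1034 of all 27457 windows (3.77%). All 9 called members with a window held it. The windows of the 4 largest rises among these 9 follow, each on the strand of its gene, with the matched letters in capitals (TTTC at both ends where the match is on the opposite strand). Gbp5 is at chr2:233910749-233911048 (+), Isg20 at chr1:142239809-142240108 (+), Irf7 at chr1:205799974-205800273 (-) and Oas1a at chr12:41330216-41330515 (+). The match starts 56, 92 and 69 bases before the start of Gbp5, Isg20 and Irf7, and Oas1a has 2 overlapping matches.
Gbp5: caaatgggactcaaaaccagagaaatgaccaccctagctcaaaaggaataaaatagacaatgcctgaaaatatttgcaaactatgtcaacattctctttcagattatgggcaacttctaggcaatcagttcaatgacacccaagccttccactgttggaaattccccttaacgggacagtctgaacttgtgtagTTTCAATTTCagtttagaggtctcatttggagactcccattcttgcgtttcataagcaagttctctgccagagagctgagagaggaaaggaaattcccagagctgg
Isg20: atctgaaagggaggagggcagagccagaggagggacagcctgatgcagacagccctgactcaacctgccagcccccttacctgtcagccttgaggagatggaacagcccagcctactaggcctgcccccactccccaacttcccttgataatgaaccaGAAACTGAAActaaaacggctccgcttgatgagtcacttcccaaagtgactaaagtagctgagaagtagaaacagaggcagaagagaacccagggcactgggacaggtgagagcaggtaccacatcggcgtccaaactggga
Irf7: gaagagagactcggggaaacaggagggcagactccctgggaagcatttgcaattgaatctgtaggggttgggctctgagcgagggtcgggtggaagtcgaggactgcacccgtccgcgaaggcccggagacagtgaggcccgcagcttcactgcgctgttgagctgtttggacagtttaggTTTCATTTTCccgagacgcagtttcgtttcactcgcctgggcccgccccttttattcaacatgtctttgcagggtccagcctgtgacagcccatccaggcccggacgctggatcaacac
Oas1a: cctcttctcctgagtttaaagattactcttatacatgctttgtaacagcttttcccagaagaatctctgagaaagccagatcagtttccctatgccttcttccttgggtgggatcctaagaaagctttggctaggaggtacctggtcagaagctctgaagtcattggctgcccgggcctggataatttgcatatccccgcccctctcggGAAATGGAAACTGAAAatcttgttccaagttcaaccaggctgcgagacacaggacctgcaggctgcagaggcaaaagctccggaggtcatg

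Genes of T and NK cells were higher at 7 d. Of 30 tested, 13 (43.3%) rose, against 13.8% of all probes, and none fell, with a median of 0.52. The list mean was -1.67 to -1.40 at 4 d and -1.21 to -0.85 at 7 d. Ccl5, a chemokine that activated T cells release, went from 0.11, 0.26 and 0.56 to 1.17, 1.40 and 1.12 (0.92 ± 0.14, adjusted p = 0.00923), kept its call in all alternatives, and reached 1.65 to 2.97 at 14 d. Cd5, a T cell surface receptor, went from -2.63, -2.54 and -2.55 to -1.90, -1.55 and -1.71 (0.85 ± 0.10, adjusted p = 0.00518). Zap70, the kinase of T cell receptor signalling, rose by 0.73 ± 0.16 (adjusted p = 0.0246, kept in 10 of 19 alternatives), and the receptor chain Cd3e by 0.65 ± 0.10 (adjusted p = 0.00984). Cd8a and Cd8b, which mark cytotoxic T cells, differed by -0.43 and -0.38 and were not called. Between 6 and 9 of the 30 genes rose when any array other than replicate 3 of 4 d was left out, and 20 when that array was left out. With slide as a random block 5 rose, with 12 or 15 SN arrays in the fit 4, and with normexp and a percentile shift 2.

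MHC class II genes, which present antigen to CD4 T cells, rose in part, with a median of 0.45. Of 13 tested, 6 (46.2%) rose and 1 (7.69%) fell, against 13.8% and 10.2% of all probes. The invariant chain Cd74 went from 5.34, 5.31 and 5.63 to 6.11, 6.03 and 6.18 (0.68 ± 0.11, adjusted p = 0.0101). RT1-DOa rose by 0.96 ± 0.12 (adjusted p = 0.00563) and RT1-Bb by 0.82 ± 0.18 (adjusted p = 0.0247, kept in 12 of 19 alternatives), and RT1 probes may also bind RNA of close gene copies. Ifi30, a lysosomal thiol reductase that macrophages carry, fell by 0.38 ± 0.10, a call kept in 7 of 19. Without any array other than replicate 3 of 4 d, 2 to 4 of the 13 rose, and with slide as a random block 2. Of the 9 B and plasma cell genes, Cd72 rose by 0.58 and Cd22 fell by 0.38, 11.1% each way and near the shares of all probes. Neither was called with slide as a random block or with the replicate block, and the other Cd22 probe gave -0.09 (adjusted p = 0.687). Of 10 mast cell genes 1 (10%) fell, near the 10.2% of all probes. That gene, the IgE receptor chain Ms4a2, fell by 0.64 (adjusted p = 0.0497), a call kept in 10 of 19 alternatives.

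Macrophage genes moved the other way. Of 31 tested, none rose and 10 fell, against 10.2% of all probes, with a median of -0.30, and the list mean was 2.78 to 3.08 at 4 d and 2.56 to 2.73 at 7 d. Gpnmb, a glycoprotein of debris-laden macrophages, went from 5.92, 5.97 and 6.26 to 5.12, 4.87 and 4.54, a fall of -1.21 ± 0.17 or to 0.433 times its 4 d level (adjusted p = 0.00786). Cd163, the haemoglobin scavenger receptor, went from -0.37, -0.08 and 0.11 to -0.97, -1.42 and -1.27 (-1.10 ± 0.17, adjusted p = 0.00899), having been at -0.02 to 0.19 at 1 d. Mrc1, the mannose receptor, went from 3.76, 3.63 and 3.67 to 2.82, 2.63 and 2.67 (-0.98 ± 0.082, adjusted p = 0.0024). These 3 kept their calls in all alternatives, and 7 to 10 members fell when any array was left out, while 3 rose without replicate 3 of 4 d. With slide as a random block 5 fell. Some abundant members did not pass: C1qb, a complement chain, differed by -0.22 (adjusted p = 0.0969) and the lysozyme Lyz2 by -0.26 (adjusted p = 0.143).

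Of 28 lysosome and lipid handling genes, 9 (32.1%) fell, against 10.2% of all probes, and none rose, with a median of -0.24. Ctsd, cathepsin D, went from 7.02, 7.11 and 7.25 to 6.53, 6.38 and 6.19 (-0.76 ± 0.11, adjusted p = 0.00867), and Abca1, the cholesterol efflux pump, from 2.02, 2.12 and 2.17 to 1.57, 1.37 and 1.18 (-0.73 ± 0.11, adjusted p = 0.00979). Apoe differed by -0.04 and Ctsb by -0.20, neither called. Without any array other than replicate 3 of 4 d, 3 to 5 members fell, and with slide as a random block 3. Of 25 acute cytokines and chemokines 3 (12%) fell, near the 10.2% of all probes, and none rose, although 6 rose without replicate 3 of 4 d. Arg1, the arginase of wound macrophages, went from 1.16, 1.34 and 1.60 to 0.32, 0.09 and 0.05 (-1.22 ± 0.14, adjusted p = 0.00426), after 2.29 to 3.12 at 1 d. Clcf1, a gp130 cytokine, fell by 0.67 ± 0.076 (adjusted p = 0.00449) and Il1a by 0.75 ± 0.13. Of 14 neutrophil genes 3 (21.4%) fell, among them the lipocalin Lcn2 by 0.73 ± 0.14 (adjusted p = 0.0172) and the chemokine receptor Cxcr1 by 1.06 ± 0.14 (adjusted p = 0.0068). The alarmin S100a9 differed by -0.05 with overlapping arrays.

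**Figure D3:**
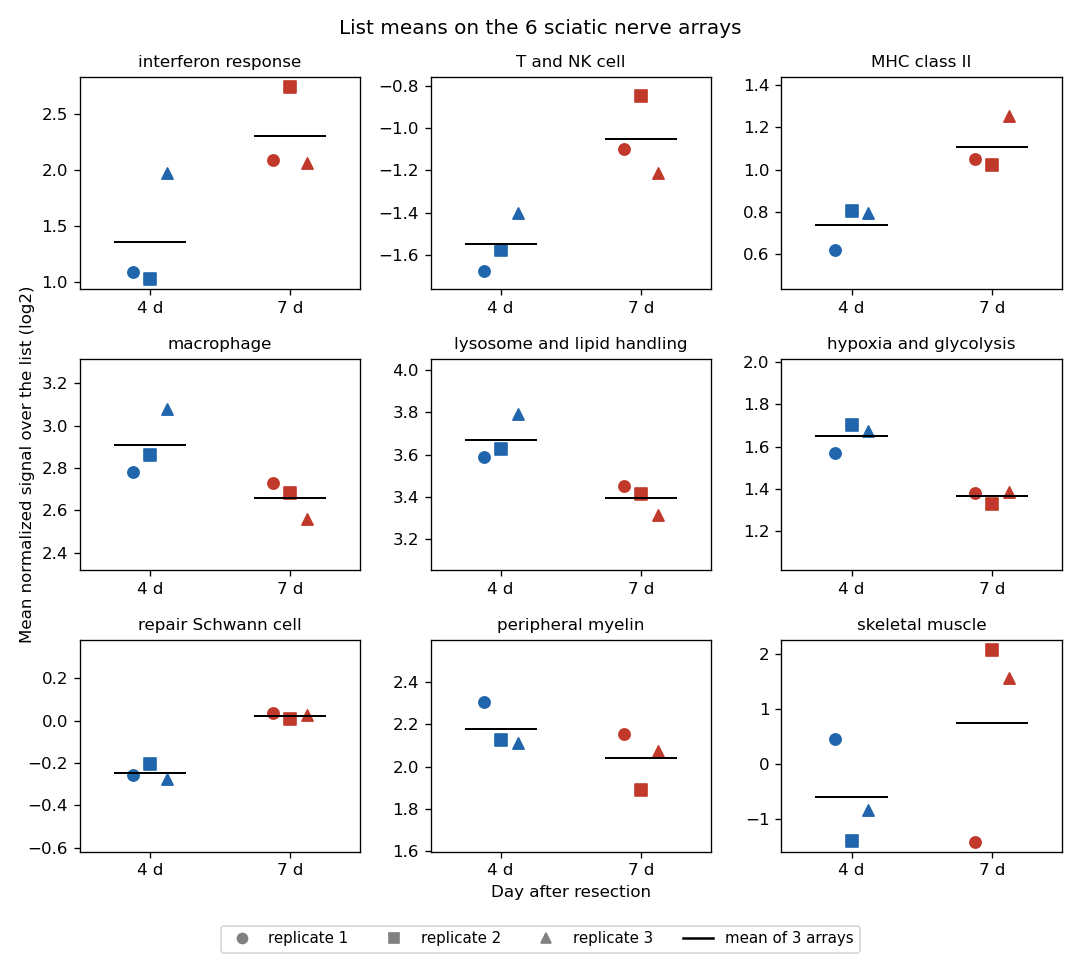
Mean normalized signal (log2, y axis) over the tested members of 9 gene lists on the 3 arrays of 4 d (blue) and of 7 d (red), with a symbol for each replicate and a bar at the mean of the 3 arrays. Replicate 3 of 4 d lies close to the 7 d arrays for interferon response genes, at 1.97, and the skeletal muscle markers range from -1.42 to 2.09 at 7 d.

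Of 22 genes of hypoxia and glycolysis tested, 11 (50%) fell, against 10.2% of all probes, and none rose, with a median of -0.35 and list means of 1.57 to 1.70 at 4 d and 1.33 to 1.39 at 7 d. Bnip3, a mitophagy protein that HIF-1 induces, went from 1.91, 1.95 and 1.92 to 1.33, 1.15 and 1.26 (-0.68 ± 0.074, adjusted p = 0.00401) and kept its call in all alternatives. Its level was 2.91 to 3.38 at 0 d, so that the fall went on from an earlier one. Ndrg1, a hypoxia-induced gene that myelinating Schwann cells also make, fell by 0.79 ± 0.14 (adjusted p = 0.0142), with -0.36 on its other probe (adjusted p = 0.141, not called), and the glycolytic kinase Pgk1 by 0.58 ± 0.085 (adjusted p = 0.00839). Without replicate 2 of 4 d 5 members fell, without replicate 1 or 2 of 7 d 4 fell, and without replicate 3 of 7 d 7 fell. With slide as a random block 4 fell.

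Cell cycle genes were slightly lower at 7 d. Of 45 mitosis genes, 9 (20%) fell and 2 rose, with 37 lower in the mean and a median of -0.13. Of 34 DNA replication genes, 8 (23.5%) fell and 1 rose, with 29 lower in the mean and a median of -0.14, against 10.2% of all probes that fell. On both lists the means of the 7 d arrays lay below those of all 4 d arrays. Anln, the anillin of the cleavage furrow, went from -0.73, -0.69 and -0.82 to -1.51, -1.55 and -1.25 (-0.69 ± 0.10, adjusted p = 0.0084). Ccna2, cyclin A, fell by 0.66 ± 0.097 (adjusted p = 0.00848), and Cenpf, a kinetochore protein, rose by 1.01 ± 0.079 (adjusted p = 0.0021). Cdk1, the kinase that drives entry into mitosis, differed by -0.12 (adjusted p = 0.259), and Pcna, the replication clamp, by -0.04 with overlapping arrays. The ribonucleotide reductase subunit Rrm2 fell by 0.47 on the probe used and rose by 0.48 on its other probe, so that its direction is not settled. Without any array other than replicate 3 of 4 d, 2 to 4 mitosis genes and 1 to 3 replication genes fell, and with slide as a random block 2 and 1. The E2F letters TTTGGCGC, on either strand, were in 7 of 28 promoter windows of replication genes against 0.52% of all windows, and TTTCCCGC in 3 of 28 (10.7%) against 1.03%. The cell cycle letters TTTGAA and CCAAT were in 76.3% and 73.7% of 38 mitosis windows, against 18.07% and 37.74% of all. Of 22 genes of endoplasmic reticulum and secretory stress, 4 (18.2%) fell and 1 (4.55%) rose, against 10.2% and 13.8% of all probes. Over the alternatives 1 to 5 fell and 0 to 3 rose. The chaperone Canx fell by 0.53 ± 0.080 (adjusted p = 0.00917), and its other probe gave 0.13.

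Myelin genes split between members that rose and members that fell. Of 19 tested, 4 (21.1%) rose and 5 (26.3%) fell, against 13.8% and 10.2% of all probes, with a median of -0.17. Mag, an adhesion protein of the innermost myelin wrap, went from 1.34, 1.32 and 1.12 to 1.86, 1.59 and 1.71 (0.46 ± 0.10, adjusted p = 0.0253), and was at 2.60 to 3.05 at 14 d. Cnp, a phosphodiesterase of noncompact myelin, rose by 0.39 ± 0.095, and the gap junction protein gene Gjc3 by 0.42 ± 0.10. Ugt8, the enzyme that makes galactocerebroside, went from 0.65, 0.39 and 0.14 to -0.52, -0.85 and -0.49 (-1.01 ± 0.16, adjusted p = 0.0105), and kept its call in all alternatives. Mbp, a structural protein of compact myelin, went from 4.72, 4.50 and 4.52 to 4.25, 3.80 and 4.20 (-0.50 ± 0.14, adjusted p = 0.0486). Mbp was called in 5 of 19 alternatives, and Mag in 9, Cnp in 11 and Gjc3 in 11. Without replicate 2 of 4 d, or any array of 7 d, no member rose and 1 or 2 fell. With slide as a random block none rose and 1 fell. The myelin proteins Pmp22 and Pmp2 differed by -0.12 and -0.34 and were not called.

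Lipid synthesis genes, which supply myelin membrane, changed in few members. Of 26 cholesterol genes 4 (15.4%) fell and 1 (3.85%) rose, against 10.2% and 13.8% of all probes. Without any array other than replicate 3 of 4 d, or with slide as a random block, 0 or 1 fell. Hmgcs1, an early enzyme of the pathway, fell by 0.41 ± 0.099, whose other probe gave 0.00, while Srebf2, the factor that activates the pathway, rose by 0.72 ± 0.10 (adjusted p = 0.00741). None of 18 promoter windows of these genes held TCACNCCAC, which is in 1.13% of all windows. Of 20 fatty acid genes 2 (10%) rose and 1 (5%) fell, below the shares of all probes. None was called with slide as a random block or with the replicate block, and none rose and 5 fell with median scaling. Scd2, a desaturase, and Acly, which supplies acetyl-CoA, differed by -0.23 and 0.17 without being called.

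Matrix genes were called about as often as all probes. Of 42 collagen and matrix genes, 6 (14.3%) rose, against 13.8% of all probes, and 2 (4.76%) fell, with a median of 0.10. Loxl2, which crosslinks collagen, went from 3.47, 3.56 and 3.69 to 4.23, 4.38 and 4.23 (0.71 ± 0.087, adjusted p = 0.00559). Dcn, the proteoglycan decorin, rose by 0.43 ± 0.099, a call kept in 11 of 19 alternatives, and Eln, elastin, fell by 0.74 ± 0.16. The main fibrillar collagens Col1a1 and Col3a1 differed by 0.09 and -0.10 with overlapping arrays. Of 30 matrix proteases and inhibitors, 4 rose and 4 fell, 13.3% each way, near the shares of all probes. Beside Mmp13, the inhibitor Timp3 went from 0.61, 0.34 and 0.55 to 1.96, 1.82 and 1.98 (1.42 ± 0.098, adjusted p = 0.00197), and Mmp3, stromelysin 1, rose by 1.14 ± 0.13 (adjusted p = 0.00472). Plau, urokinase, went from 0.59, 0.80 and 0.99 to -0.23, -0.47 and -0.17 (-1.08 ± 0.13, adjusted p = 0.00542), Mmp7, matrilysin, fell by 1.03 ± 0.12, and Adam8, a protease of activated myeloid cells, by 0.80 ± 0.12. The inhibitors Timp1 and Timp2 differed by 0.01 each. Without replicate 3 of 4 d 15 matrix genes rose, and without any other array, or with slide as a random block, 2 or 3.

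Vessel genes did not move together. Of 24 endothelial genes 2 (8.33%) rose and 3 (12.5%) fell, against 13.8% and 10.2% of all probes. Of 12 pericyte and smooth muscle genes 1 (8.33%) rose and 1 (8.33%) fell. Cdh5, VE-cadherin, fell by 1.16 ± 0.11 on the brighter probe (adjusted p = 0.00321) and rose by 0.45 on the other (adjusted p = 0.0114), so that its direction is not settled. Esam, an endothelial junction protein, fell by 0.40 ± 0.065, and the VEGF receptor Kdr differed by 0.20 (adjusted p = 0.232). Mcam rose by 0.42 ± 0.067 and the smooth muscle protein Tagln fell by 0.54 ± 0.088. Of 94 ribosomal protein genes 10 (10.6%) fell and 1 rose, and of 86 oxidative phosphorylation genes 6 (6.98%) fell and 1 rose, shares near and below the 10.2% of all probes, with medians of -0.07 and -0.06, and without any array other than replicate 3 of 4 d 0 or 1 of each list fell.

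The 10 largest falls among named genes fell into 2 patterns. In the first, all 4 d arrays were alike. Clca5, a calcium-activated chloride channel regulator, went from -1.12, -1.02 and -1.23 to -3.25, -3.33 and -3.39 (-2.20 ± 0.083, 0.218 times, adjusted p = 0.0007), and the related Clca4l from 0.25, 0.23 and 0.05 to -1.91, -2.04 and -2.40 (-2.29 ± 0.14, adjusted p = 0.00184). Clca5 was between -7.09 and -6.12 at 0 d and between 0.00 and 0.63 at 1 d. Meltf, melanotransferrin, fell by 2.22 ± 0.14 (adjusted p = 0.00184). In the other 7, replicate 3 of 4 d lay far below replicates 1 and 2: Or4c1, an olfactory receptor, had -1.97, -1.99 and -4.20 at 4 d and -5.30, -5.40 and -5.63 at 7 d (-2.73 ± 0.60, adjusted p = 0.0249). Without replicate 3 its difference was -3.47. Or10al27, Or4c122 and Or4k42b, Ano7, Cyp2b12 and Nhlh2 showed the same order of arrays, with differences of -2.31 to -1.92 and calls in 11 to 13 of 19 alternatives.

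Because 4 of these 10 are olfactory receptors, a family known for sensing odours in the nose, the whole family was counted after these values had been seen. Of 506 olfactory receptor probes tested, 122 rose and 24 fell, where 13.8% and 10.2% of all probes did. The median was 0.33 against 0.01 over all probes. The alternative analyses were not run for the family as a whole. In 22 of the 24 that fell, replicate 3 was the lowest of the 4 d arrays. The probes were dim, with a median signal of -5.04 against -1.99 over all tested, and 382 were well above background on all 6 arrays. Probes for receptors of this family may also bind RNA of near-identical copies.

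The change from 4 d to 7 d was set against that of the ganglia, to see where the nerve differed. In an interaction fit on the 12 SN and DRG arrays of these days, 942 of 35440 probes (2.66%) differed, and of the 170 named genes 32 did. The named genes were largely chosen by their SN change, which is part of this contrast. Their share therefore cannot be set against that of all probes. Of the 942 the SN change was the higher for 56.3%, and for 46.2% with quantile normalization, 40.0% with median scaling and 45.5% with normexp and quantile normalization. In DRG alone 90 probes changed by the same limma test, and 6408 had an unadjusted p under 0.05. Gfra3 rose by 2.94 in SN and differed by 0.11 in DRG, a difference of 2.83 (adjusted p = 9.17e-06). Mmp13 rose by 2.61 in SN and differed by -1.44 in DRG, so that the tissues differed by 4.04 (adjusted p = 0.000333). Ednrb differed by 0.79 in DRG and by 1.34 between the tissues (adjusted p = 0.00201). Clca5 and Clca4l fell in SN and differed by 0.15 and -0.09 in DRG. Immune genes that rose in SN were also higher at 7 d in DRG. The DRG differences were 1.79 for Gbp5, 2.39 for Ifit1, 0.96 for Isg20, 1.95 for RT1-DOa and 1.62 for RT1-Bb. For Ccl5, Cd5 and Zap70 they were 1.14, 0.70 and 0.46. Gpnmb, Cd163 and Mrc1 were lower in DRG as well, by -0.54, -1.315 and -0.35. None of these genes was called in the interaction. The ganglion arrays of 7 d lay on 2 slides and on 2 scan dates. With slide as a fixed block, the contrast rested on replicate 3 of SN 4 d and replicate 1 of DRG 7 d. The other arrays of these groups shared no slide with another group in the fit. Its calls are not counted here, and most of the 32 named genes lost theirs. The differences were 2.68 for Gfra3, 1.685 for Pou3f1, 3.89 for Mmp13, 2.64 for Pappa and 1.04 for Ednrb. For Clca5, Clca4l and Meltf they were -2.26, -2.09 and -1.70, and for Nhlh2 -1.46 instead of -2.94. Without replicate 1 of DRG 4 d, 7075 probes differed, without replicate 1 of DRG 7 d 2203 and without replicate 3 of SN 4 d 2125, and without any other array 228 to 433.

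**Figure D4:**
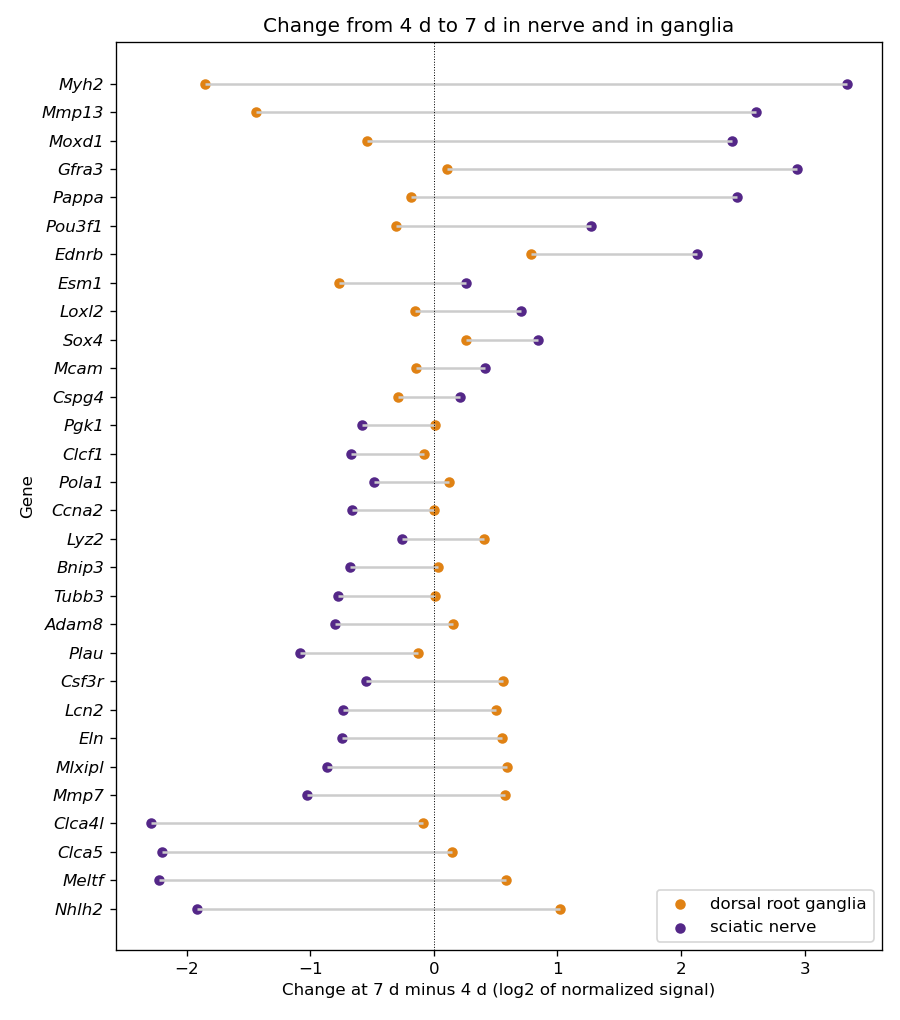
Change from 4 d to 7 d (log2, x axis) in sciatic nerve (purple) and dorsal root ganglia (orange) of 30 named genes (y axis) whose change differed between the tissues, each pair joined by a line. Gfra3 rose by 2.94 in nerve and differed by 0.11 in ganglia, and Clca5 fell by 2.20 in nerve and differed by 0.15 in ganglia.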

How the data were processed

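The deposited scanner files of the authors hold the intensity of each spot, read with Agilent Feature Extraction 10.5.1.1 and, per the file headers, background-subtracted and detrended within the array but not normalized between arrays. The log2 values of the authors' deposited matrix have the same distribution on every array and served as an alternative. Arrays were grouped by title.

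Here, spots flagged as outliers were left out, and log2 intensities were averaged over the spots of each of 41012 probes and reduced by the 75th percentile of the array. Probes well above background (at least 50% of spots) on all 3 arrays of either day were tested with limma 3.58.1 (R 4.3.3, statmod 1.5.0) on the 6 arrays, without a block, and by the interaction on 12 arrays. Of the probes tested, 75 lacked a value on an array, 6 of them among those that changed, and were fitted on the remaining arrays. The fits were tested on simulated data. Array number limits the precision.

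Symbols come from the array annotation (build rn4), updated through RefSeq tables (GRCr8, 47357 genes): 13088 of 17504 accessions matched and 4839 symbols changed. A gene in a list is its brightest tested probe. Named were the 10 largest rises and falls among changed probes above background on all 6 arrays with a symbol, and per list up to 3 rises, 3 falls and the 2 brightest genes that did not change. Genes outside this rule (Irf7, Oas1a, Cd3e, Cd8a, Cd8b, Cd74, Cdh2, Ncam1) were named after their values were seen. Some named items are not reported here. The gene lists and the comparison were chosen with earlier results of these data known. Alternatives varied the background correction, scaling, filter, arrays in the fit, block and test, and left out each array.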

Additional observations from a re-analysis of the deposited data

Results flagged for a closer look

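With 3 arrays a group, a single sample far from the others was not tested for. Of the 170 named genes, 32 changed from 4 d to 7 d differently in SN and DRG (interaction in limma, adjusted p under 0.05), and 30 of them are given here, where each value is the SN change minus the DRG change on the log2 scale. The named genes were largely chosen by their SN change, which is part of each difference, so that their number is raised by that choice. Among genes higher in SN by this difference were Myh2 (5.20), Mmp13 (4.04), Moxd1 (2.95), Gfra3 (2.83), Pappa (2.63), Pou3f1 (1.58), Ednrb (1.34) and Esm1 (1.03). Smaller positive differences were seen for Loxl2 (0.86), Sox4 (0.58), Mcam (0.56) and Cspg4 (0.51). The difference was negative for Nhlh2 (-2.94), Meltf (-2.81), Clca5 (-2.35), Clca4l (-2.21), Mmp7 (-1.61), Mlxipl (-1.46), Eln (-1.30), Lcn2 (-1.23) and Csf3r (-1.11). It was also negative for Plau (-0.95), Adam8 (-0.95), Tubb3 (-0.78), Bnip3 (-0.72), Lyz2 (-0.67), Ccna2 (-0.67), Pola1 (-0.61), Clcf1 (-0.59) and Pgk1 (-0.59). With slide as a fixed block the contrast rested on replicate 3 of SN 4 d and replicate 1 of DRG 7 d. Most of the 32 did not stay past the threshold there, and Myh2 (5.30) was among those that did not.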

How the results depend on the processing

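For SN, 8141 probes changed (1090 over 2-fold). Quantile normalization, the authors' matrix, median scaling, the percentile over detected probes, both filters and fits on 12 or 15 SN arrays gave 6017 to 8754. Normexp background with a percentile shift gave 1701 (281 over 2-fold), with a median over all probes of -0.136 against 0.007, and 1046 of the 8141 had the opposite sign. There Sema4d turned to -0.046. The cause was not tested. Normexp with quantile normalization gave 9137 (233 over 2-fold), and median scaling a median of -0.067. Slide as a random block gave 2521 (603 over 2-fold), the methods' t-test 4948 after adjustment (560 over 2-fold; 1108 over 2-fold unadjusted), and the filter on all 6 arrays 720 over 2-fold. Leaving out an array gave 3067 to 11368 (654 to 2084 over 2-fold) and medians of -0.016 to 0.014. Without replicate 3 of SN 4 d but with the other SN arrays of 1 to 14 d, chosen after seeing the data, 8166 changed (1485 over 2-fold). The replicate numbers do not pair the arrays (correlations of deviations for the same number -0.067, -0.100 and -0.107); with the replicate block 3476 probes changed, and 253 differed between SN and DRG instead of 942. That interaction gave 68 with normexp and a percentile shift, 1817 with normexp and quantile normalization, 466 and 198 with slide as a random and a fixed block (chosen after seeing the data), and 228 to 7075 when an array was left out. Scan date as a block was not run for SN, since both days share 1 date. Depth is not given by arrays; the background limits the dim end. Over the named genes, 2669 of their values under alternatives kept direction and side of the threshold, 532 lost the threshold, 28 passed it and 1 turned.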
